A study of Mus musculus with 5 samples.

Results

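The collagen genes were taken as every probe set whose single gene symbol in the platform annotation has the form Col, a number, a and a number. The set held 82 probe sets of 42 genes, among 18202 genes on the array, and the probe set with the highest mean log2 value stood for each gene. Collagens are extracellular proteins built from 3 alpha chains wound into a triple helix. Fibrillar collagens assemble into the fibrils that give tissue its tensile strength, network-forming collagens such as type IV build basement membranes, and other families coat fibrils, form beaded filaments or span the cell membrane. In liver the fibrillar types I and III are mostly made by stellate cells and portal fibroblasts, and their deposition is the hallmark of fibrosis. The livers measured here were untreated, so the values describe the collagen transcripts of resting liver.

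The study set out to compare liver gene expression across inbred mouse strains in connection with copy number differences and expression loci. There were 5 Affymetrix Mouse430_2 arrays, with liver RNA of RIIIS/J, NZW/LacJ, FVB/NJ, BALB/CByJ and C57BL/6J on 1 array each. Each RNA was a pool of 3 untreated males aged 10 weeks, so differences between animals of a strain cannot be seen. Since no strain had a second array, differences are described by their size alone, without tests or p-values. The values are intensities on a linear scale, and their precision is limited by there being 5 arrays.

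Transcripts were called detected above an intensity of 8.49, below which lay 95% of the values of 83 probe sets of odour, pheromone and taste receptor genes, which liver should not express. Each array then had 10772 to 11105 detected genes, and 11862 genes were above the floor somewhere. All 6 hepatocyte markers were detected on every array with none apart between strains, and their summed intensity lay between 246497 and 280551. A pair of arrays stood out by transcripts of other tissues. The summed intensity of 7 lymphoid markers was 22923 in FVB/NJ, against 175 to 291 in the other strains, and that of 3 detected erythroid markers was 5096 in FVB/NJ, against 1090.0 to 3534. The summed intensity of 9 pancreatic acinar markers was 71418 in RIIIS/J, against 732 to 1312 in the other strains. Several of the main collagen results that involve FVB/NJ or RIIIS/J are therefore also given without those arrays. In whole tissue, fewer cells of a type and less RNA per cell cannot be told apart.

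Promoter sequences are shown for 4 fibrillar collagen genes that carry the differences described below. Col1a2 and Col3a1 shared the same low strains, Col5a3 was high in C57BL/6J, and Col27a1 was high in FVB/NJ and low in RIIIS/J. The 250 bases before the annotated start were taken from RefSeq on GRCm38.p6, which is the genome of C57BL/6J, and are written 5′ to 3′ on the strand of the gene. Col1a2 lies at chr6:4505368-4505617 on the plus strand, Col3a1 at chr1:45311288-45311537 on the plus strand, Col27a1 at chr4:63215162-63215411 on the plus strand and Col5a3 at chr9:20815068-20815317 on the minus strand. Capitals mark the TATA motif TATAAA, the CAAT motif CCAAT and the GC motif GGGCGG on either strand. Where the GC motif lies on the opposite strand it reads CCGCCC.
Col1a2: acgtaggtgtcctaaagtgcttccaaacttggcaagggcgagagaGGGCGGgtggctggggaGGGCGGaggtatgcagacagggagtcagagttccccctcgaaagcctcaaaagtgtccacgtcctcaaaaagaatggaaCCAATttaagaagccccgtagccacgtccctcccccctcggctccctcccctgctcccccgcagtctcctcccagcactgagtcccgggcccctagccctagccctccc
Col3a1: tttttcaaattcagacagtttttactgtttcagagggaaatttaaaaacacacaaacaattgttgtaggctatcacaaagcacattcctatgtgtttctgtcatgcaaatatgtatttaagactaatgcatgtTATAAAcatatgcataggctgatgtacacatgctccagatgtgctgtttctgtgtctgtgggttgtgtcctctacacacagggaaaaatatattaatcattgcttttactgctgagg
Col27a1: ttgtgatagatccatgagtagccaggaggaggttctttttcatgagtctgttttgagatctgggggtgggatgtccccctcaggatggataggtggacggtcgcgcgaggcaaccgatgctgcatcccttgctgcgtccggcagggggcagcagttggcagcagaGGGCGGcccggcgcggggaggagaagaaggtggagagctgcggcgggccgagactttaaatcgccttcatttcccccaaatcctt
Col5a3: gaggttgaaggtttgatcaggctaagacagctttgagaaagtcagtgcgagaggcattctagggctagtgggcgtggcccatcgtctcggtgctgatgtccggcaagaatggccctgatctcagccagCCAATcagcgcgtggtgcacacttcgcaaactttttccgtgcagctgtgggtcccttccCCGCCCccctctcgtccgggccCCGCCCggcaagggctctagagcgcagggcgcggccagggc

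Counted from the annotated start, the Col1a2 window held GGGCGG at -205 to -200 and -188 to -183 and CCAAT at -109 to -105. The Col3a1 window held TATAAA at -117 to -112 and no GGGCGG. The Col27a1 window held GGGCGG at -85 to -80. The Col5a3 window held CCAAT at -122 to -118 and GGGCGG on the opposite strand at -63 to -58 and -41 to -36. Promoter entries were matched for 33 of the 42 collagen genes, 17 of them detected, and gave 36 windows. GGGCGG was in 21 of the 36 windows, against 32.7% of 32851 promoters of the same length. CCAAT was in 13 windows, against 33.8% of all promoters, and TATAAA in 5 windows, against 12.4%. These matches describe the letters of the reference strain only.

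Of the 42 collagen genes, 24 were above the floor on at least 1 array and 19 on all 5. Between 20 collagen genes, in FVB/NJ, and 23, in C57BL/6J and in NZW/LacJ, were detected on a single array. The fibrillar class had 9 of 11 genes detected, the basement membrane class 5 of 8, and the remaining classes 10 of 23. Among the remaining classes, 5 of 9 fibril-associated collagens with interrupted triple helices (FACIT) were detected, 3 of 5 beaded filament collagens, 1 of 4 transmembrane collagens, 1 of 2 others, and 0 of 3 short-chain collagens. Genes above the floor in only some strains had to differ, so the counts below are read against all detected genes and not as evidence by themselves.

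The 18 collagen genes under the floor on every array included those known from other tissues. The fibrillar genes among them were Col11a1 and Col11a2, which belong to cartilage fibrils. The basement membrane genes were Col4a3 and Col4a4, chains of the kidney glomerular network, and Col15a1. The others were the beaded filament genes Col6a4 and Col6a5, the anchoring fibril gene Col7a1, the short-chain genes Col8a1, Col8a2 and Col10a1, the FACIT genes Col9a1, Col9a2, Col19a1 and Col22a1, and the transmembrane genes Col17a1, Col23a1 and Col25a1. A probe set under the floor gives only an upper bound on its signal and does not show that the transcript is absent.

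A strain was called apart for a gene when a gap of 2-fold or more, upward or downward, lay between it and its closest neighbour among the 5 values, with values under the floor set equal to it. Of the 24 detected collagen genes 2 were apart in any strain, against 12.0% of all detected genes, which is near the background. Col5a3 was apart and higher in C57BL/6J, where 0.489% of all detected genes were called. Col27a1 was apart and higher in FVB/NJ, where 5.82% of all genes were called, and apart and lower in RIIIS/J, where 1.73% were called. In the other directions 0 collagen genes were called. The share of all detected genes there was 0.801% higher in BALB/CByJ, 0.759% higher in NZW/LacJ and 0.969% higher in RIIIS/J. It was 0.422% lower in C57BL/6J, 0.438% lower in BALB/CByJ, 0.54% lower in FVB/NJ and 0.725% lower in NZW/LacJ.

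The spread between strains was concentrated in few collagen genes. In 7 of the 24 detected genes the highest strain was at least 2-fold over the lowest, against 30.6% of all detected genes, so the family as a whole was near the background. The 7 genes were 5 of 9 fibrillar genes, 0 of 5 basement membrane genes and 2 of 10 others. The median ratio of the highest to the lowest strain was 2.82 for fibrillar, 1.55 for basement membrane and 1.26 for the other collagens, beside 1.59 for all detected genes. Over the 6 fibrillar genes detected on all 5 arrays the median ratio was 3.37, beside 1.61 for all genes detected on all arrays. Without RIIIS/J 4 genes had a ratio of at least 2, and without FVB/NJ the count was 7.

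**Figure D1:**
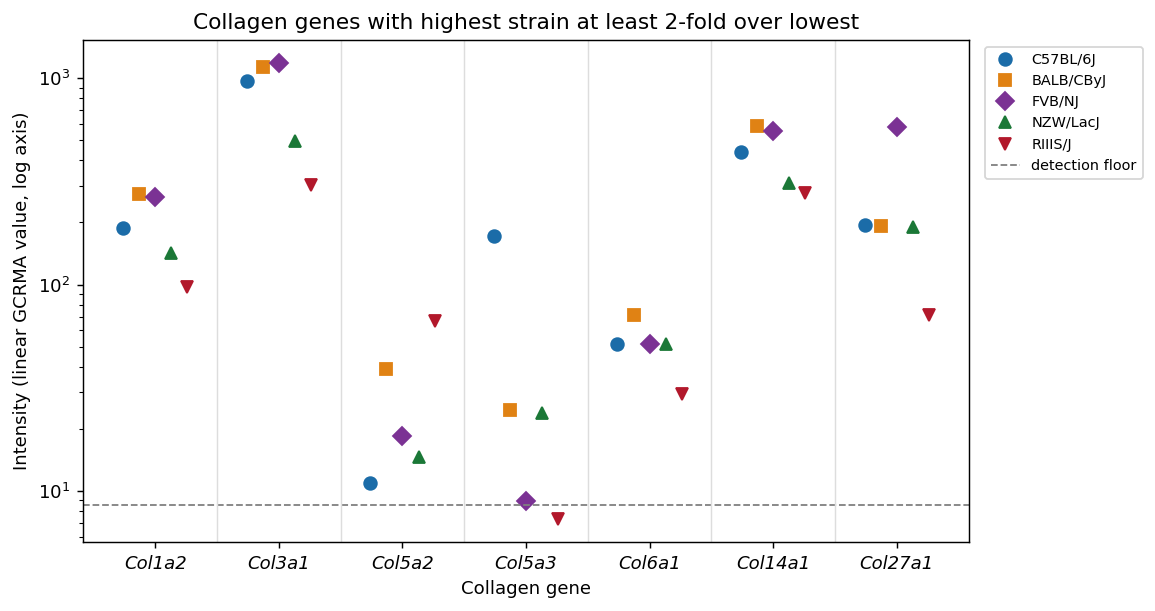
Intensity on a log axis of the 7 collagen genes whose highest strain was at least 2-fold over the lowest, with 1 point per strain and the detection floor of 8.49 dashed. RIIIS/J is the lowest point for Col1a2, Col3a1, Col5a3, Col6a1, Col14a1 and Col27a1 and the highest for Col5a2, while C57BL/6J stands alone at 172 for Col5a3 and FVB/NJ at 579 for Col27a1.

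For the fibrillar genes Col3a1 and Col1a2, RIIIS/J was lowest and NZW/LacJ next. Col3a1 on chromosome 1, whose product forms the type III homotrimer of reticular fibres, had a reported probe set well above the floor. Its intensity was 304 in RIIIS/J and 495 in NZW/LacJ, against 975 in C57BL/6J, 1132 in BALB/CByJ and 1191 in FVB/NJ. The highest strain was 3.91-fold over RIIIS/J, and NZW/LacJ itself was 1.63-fold over RIIIS/J. The lowest of C57BL/6J, BALB/CByJ and FVB/NJ was 3.20-fold over RIIIS/J and 1.97-fold over NZW/LacJ. Col3a1 was therefore apart in no strain, but without the NZW/LacJ array it was apart and lower in RIIIS/J, by 3.20-fold. Its span was 3.72-fold without FVB/NJ, with RIIIS/J lowest, and 2.41-fold without RIIIS/J, with NZW/LacJ lowest.

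Col1a2 on chromosome 6, which encodes the alpha 2 chain of type I collagen, had the same 2 strains at the bottom. Its intensity was 97.5 in RIIIS/J and 143 in NZW/LacJ, against 187 in C57BL/6J, 275 in BALB/CByJ and 265 in FVB/NJ. The highest strain was 2.82-fold over RIIIS/J, and the steps between neighbouring strains were all under 2-fold. The span was the same without FVB/NJ, and without RIIIS/J it was 1.92-fold with NZW/LacJ lowest. Col1a1 on chromosome 11, the alpha 1 chain of type I collagen, was read at a low level by its probe set. Its intensity was 11.9 in RIIIS/J and 13.9 in NZW/LacJ, against 17.0 in C57BL/6J, 18.4 in BALB/CByJ and 13.9 in FVB/NJ. The Col1a1 values spanned 1.55-fold, with RIIIS/J lowest and NZW/LacJ level with FVB/NJ, and lay not far above the floor.

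Type V collagen is a minor fibrillar type that joins type I fibrils and limits their diameter, and its 3 genes each behaved differently. Col5a3 on chromosome 9 had an intensity of 172 in C57BL/6J, against 24.8 in BALB/CByJ, 23.7 in NZW/LacJ, 8.94 in FVB/NJ and 7.28 in RIIIS/J. C57BL/6J was 6.95-fold over the next strain and at least 20.3-fold over RIIIS/J, which was under the floor. The other strains spanned a further difference, with BALB/CByJ and NZW/LacJ well above FVB/NJ and RIIIS/J. Without FVB/NJ, Col5a3 was also apart and lower in RIIIS/J, by at least 2.80-fold, and without RIIIS/J it was also apart and lower in FVB/NJ, by 2.66-fold. The second Col5a3 probe set was under the floor on every array, so the difference rests on a single probe set.

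Col5a2 on chromosome 1 ran in another order. Its intensity was 67.0 in RIIIS/J and 38.8 in BALB/CByJ, against 18.5 in FVB/NJ, 14.6 in NZW/LacJ and 11.0 in C57BL/6J. The RIIIS/J array carried the acinar transcripts, and the part of that tissue in the Col5a2 value was not tested. RIIIS/J was 6.11-fold over C57BL/6J but only 1.73-fold over BALB/CByJ, so Col5a2 was apart in no strain. Its second probe set was under the floor on every array, so these differences rest on a single probe set. Without BALB/CByJ it was apart and higher in RIIIS/J, by 3.62-fold, and without RIIIS/J it was apart and higher in BALB/CByJ, by 2.10-fold. Col5a2 is the gene next to Col3a1 in the reference, and RIIIS/J was highest for Col5a2 and lowest for Col3a1. Col5a1 on chromosome 2, the chain common to most type V molecules, lay between 36.7 and 43.7 in all 5 strains, a span of 1.19-fold.

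Col27a1 on chromosome 4 encodes a fibrillar collagen best known from cartilage. Its intensity was 579 in FVB/NJ, against 195 in C57BL/6J, 193 in BALB/CByJ, 190 in NZW/LacJ and 70.9 in RIIIS/J. FVB/NJ was 2.97-fold above the next strain, and RIIIS/J was 2.68-fold below the next, while C57BL/6J, BALB/CByJ and NZW/LacJ were nearly level. Without FVB/NJ the low value in RIIIS/J was still apart by 2.68-fold, and without RIIIS/J the high value in FVB/NJ was still apart by 2.97-fold. These are the strains whose arrays carried the lymphoid and the acinar transcripts given above, and the part of those tissues in the Col27a1 values was not tested.

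The last fibrillar genes were at the edge of detection. Col2a1, the cartilage fibril chain, was above the floor only in NZW/LacJ, at 11.6, against 5.46 to 6.08 in the other strains, a ratio of at least 1.37 against the floor. Col24a1 was above the floor only in C57BL/6J, at 8.53, with the remaining strains at 6.88 to 8.46. A ratio against the floor is a lower bound, so the size of these differences is not known.

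**Figure D2:**
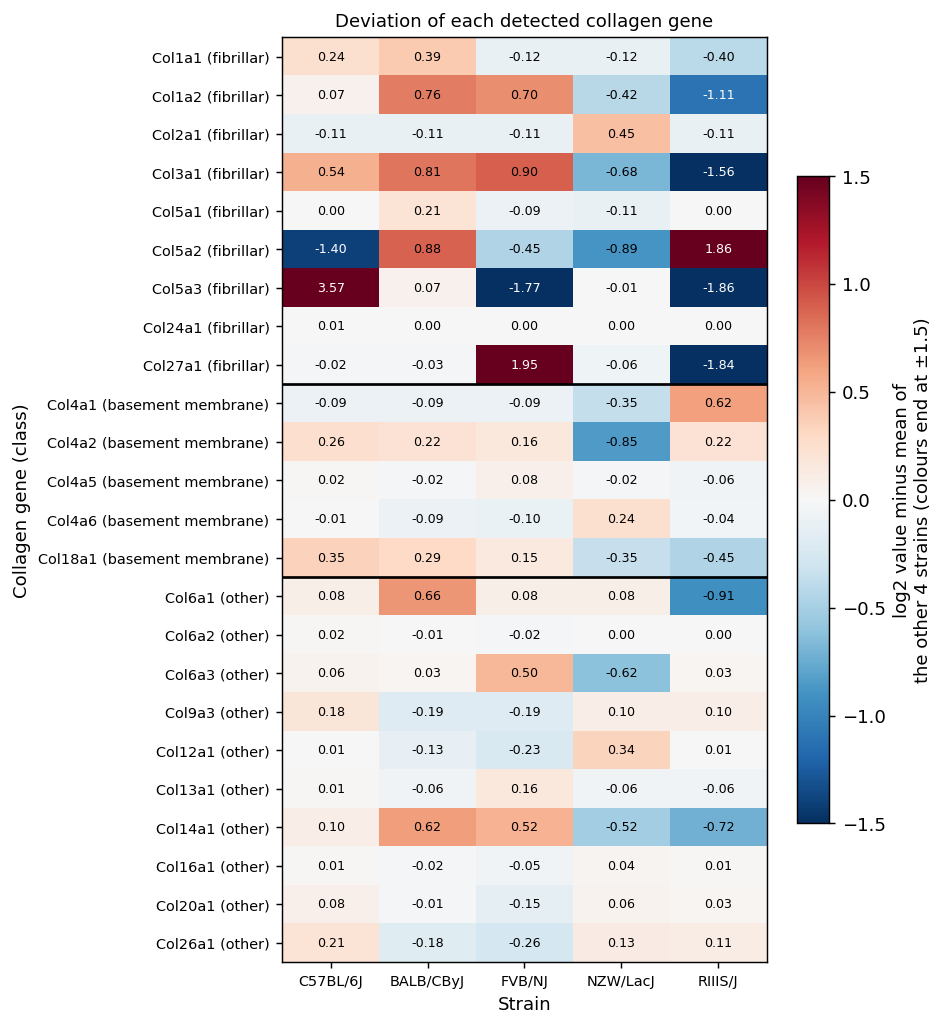
Deviation of each of the 24 detected collagen genes in each strain, as the log2 value minus the mean log2 value of the other 4 strains, with values under the floor raised to it. Fibrillar genes are at the top, basement membrane genes in the middle and other collagens at the bottom, and the highest positive entries are 3.57 for Col5a3 in C57BL/6J and 1.95 for Col27a1 in FVB/NJ.

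Among basement membrane collagens no gene reached a 2-fold span. Col4a1 and Col4a2 on chromosome 8 encode the chains of the ubiquitous type IV heterotrimer, are neighbours in the reference, and are known to share a promoter region. Col4a1 had an intensity of 419 in RIIIS/J, against 284 in C57BL/6J, BALB/CByJ and FVB/NJ and 245 in NZW/LacJ, so RIIIS/J was 1.48-fold over the next strain. Col4a2 had an intensity of 133 in NZW/LacJ, against 232 to 246 in the other strains, so NZW/LacJ was 1.75-fold below the next. NZW/LacJ was lowest for both genes, and the RIIIS/J excess of Col4a1 was not seen in Col4a2, which measured 240.05 there. The part of the acinar tissue in the RIIIS/J value of Col4a1 was not tested.

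Col18a1 on chromosome 10, the source of endostatin and a collagen known to be made by hepatocytes, was read at high intensity. It measured 3605 in RIIIS/J and 3812 in NZW/LacJ, against 5600.2 in C57BL/6J, 5439 in BALB/CByJ and 5021 in FVB/NJ, a span of 1.55-fold. The X-linked pair Col4a5 and Col4a6, known from kidney and smooth muscle basement membranes, was flat. Col4a5 spanned 1.08-fold, between 17.1 and 18.4, and Col4a6 spanned 1.20-fold, between 11.0 and 13.3.

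Type VI collagen forms beaded filaments near basement membranes from 3 main chains, and these did not move together. Col6a1 had an intensity of 29.5 in RIIIS/J, against 51.4 in C57BL/6J, FVB/NJ and NZW/LacJ and 70.9 in BALB/CByJ, and RIIIS/J was 1.74-fold below the next strain. Without RIIIS/J the Col6a1 span was 1.38-fold, against 2.40-fold with it. Its neighbour on chromosome 10, Col6a2, lay between 40.2 and 41.0, a span of 1.02-fold. The second Col6a2 probe set was under the floor on every array, so this flat reading rests on a single probe set. Col6a3 on chromosome 1 measured 37.6 in NZW/LacJ and 69.9 in FVB/NJ, with the other strains at 54.0 to 54.7, a span of 1.86-fold.

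Of the FACIT collagens, which sit on the surface of fibrils, Col14a1 showed the pattern of Col1a2 and Col3a1. Its intensity was 277 in RIIIS/J and 311 in NZW/LacJ, against 439 in C57BL/6J, 585 in BALB/CByJ and 553 in FVB/NJ. BALB/CByJ was 2.11-fold over RIIIS/J, and without RIIIS/J the span was 1.89-fold with NZW/LacJ lowest. The other FACIT genes were flat, with Col16a1 at 33.9 to 35.8 (1.06-fold), Col20a1 at 23.0 to 26.1 (1.14-fold) and Col9a3 at 8.74 to 10.8 (1.23-fold). Col12a1, at 8.45 to 11.6, was under the floor in FVB/NJ and spanned at least 1.36-fold. The transmembrane collagen Col13a1 lay at 41.4 to 46.7 (1.13-fold). Col26a1 lay at 7.93 to 11.0, was under the floor in FVB/NJ and spanned at least 1.30-fold.

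RIIIS/J and NZW/LacJ recurred at the low end of several genes. RIIIS/J was lowest and NZW/LacJ next lowest for 5 of the 24 detected genes, Col1a2, Col3a1, Col14a1, Col18a1 and Col27a1, while 8.69% of all detected genes had that order. Without FVB/NJ this order held for 7 of 24 collagen genes, with Col1a1 and Col5a3 added, and for 12.1% of all detected genes. Without RIIIS/J, NZW/LacJ was lowest for 9 of 24, against 25.8% of all genes. By any amount, RIIIS/J was lowest for 9 of 24 collagen genes, against 22.7% of all detected genes, and 5 of these 9 were fibrillar. Without FVB/NJ the count was again 9, against 27.4% of all genes. The counts for the lowest strain were 6 in FVB/NJ (26.2% of all genes), 4 in NZW/LacJ (16.8%), 1 in BALB/CByJ (12.2%) and 1 in C57BL/6J (11.5%), and the remaining genes had ties. RIIIS/J was highest for 2 collagen genes, against 17.5% of all genes. C57BL/6J was highest for 8 (19.4%), BALB/CByJ for 5 (21.6%), FVB/NJ for 5 (23.6%) and NZW/LacJ for 4 (16.9%). Small differences enter these counts, since 12 of the 24 genes spanned less than 1.5-fold. They also enter the order of RIIIS/J and NZW/LacJ. For Col27a1 NZW/LacJ was only 1.02-fold below the next strain, and for Col18a1 only 1.06-fold over RIIIS/J. A second probe set put NZW/LacJ lowest for Col27a1 and FVB/NJ lowest for Col18a1, and repeated the order for Col14a1.

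Of the class medians, the fibrillar one was lowest in RIIIS/J, and the other classes had other orders. A deviation is the log2 value in 1 strain less the average log2 value of the remaining strains. The fibrillar median was -0.40 in RIIIS/J, -0.11 in NZW/LacJ, -0.09 in FVB/NJ, 0.21 in BALB/CByJ and 0.0062 in C57BL/6J. NZW/LacJ and FVB/NJ were nearly level, and their order depended on the setting. With no floor the fibrillar median was -0.13 in FVB/NJ and -0.06 in NZW/LacJ. With quantile normalization it was -0.12 in FVB/NJ and -0.02 in NZW/LacJ. The median over all detected genes lay between -0.02 and 0.0027 in the 5 strains. The fibrillar median in RIIIS/J depended on the setting. It was -0.46 without FVB/NJ and -0.87 without NZW/LacJ, but -0.20 with the mean of all probe sets of a gene, -0.22 without the _s_at, _x_at and _a_at probe sets and -0.29 with no floor. Over the 6 fibrillar genes detected on all arrays the median was -0.75 in RIIIS/J, -0.27 in NZW/LacJ, 0.30 in FVB/NJ and 0.57 in BALB/CByJ. In FVB/NJ the sign thus depended on which members were counted.

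The basement membrane median was -0.35 in NZW/LacJ and lay between -0.04 and 0.08 in the other strains. With no floor, which added Col4a3, Col4a4 and Col15a1, it was -0.0042 in NZW/LacJ. The median over the other collagens lay between -0.03 and 0.07 in all 5 strains. C57BL/6J was above the mean of the other 4 strains for 18 of 24 collagen genes, against 50.0% of all detected genes, and for 10 of the 10 other collagens, by small amounts. The counts were 11 in BALB/CByJ (50.6% of all genes), 10 in FVB/NJ (45.2%), 9 in NZW/LacJ (45.6%) and 10 in RIIIS/J (43.2%).

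**Figure D3:**
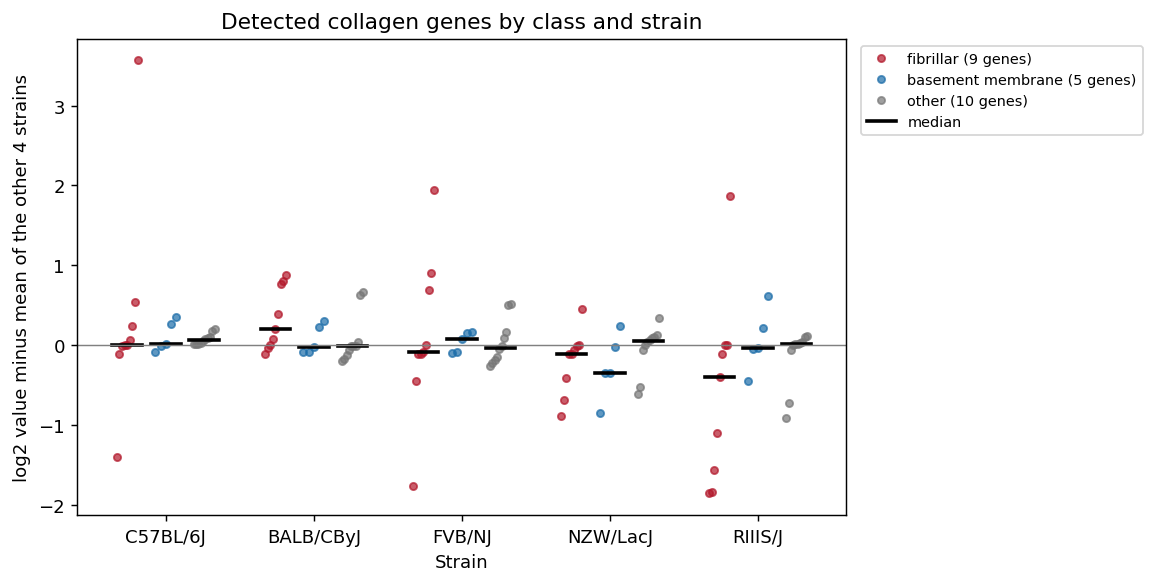
Deviation of each detected collagen gene by class and strain, in log2 units against the mean of the other 4 strains, with 1 point per gene and the class median as a bar. The fibrillar points spread widest in every strain, and their median is lowest in RIIIS/J, at -0.40, beside -0.04 for basement membrane and 0.01 for other collagens.

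A second probe set of the same gene was above the floor for 9 collagen genes and gave a check on the same RNA, though not on the animals. The second Col14a1 probe set repeated the low strains with a wider span, at 32.6 in RIIIS/J and 37.3 in NZW/LacJ, against 89.2 in C57BL/6J, 122 in BALB/CByJ and 132 in FVB/NJ. The second Col27a1 probe set repeated the high value in FVB/NJ, at 120 against 20.5 to 34.9 in the other strains. There NZW/LacJ and not RIIIS/J was lowest, with 20.5 in NZW/LacJ and 23.4 in RIIIS/J. The low Col27a1 value of RIIIS/J as the single lowest strain therefore rests on the reported probe set alone.

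The second probe sets of the main fibrillar genes read little signal. For Col3a1 the second probe set lay at 8.28 to 9.26, at the floor. For Col1a2 it measured 30.3 in FVB/NJ, against 10.2 in BALB/CByJ and 8.06 to 8.21 in the other strains, which were under the floor. It thus did not repeat the order of the reported Col1a2 probe set, in which BALB/CByJ and FVB/NJ were level. The second Col18a1 probe set put FVB/NJ lowest, at 1720, against 1930 to 2347 in the other strains, so the order of Col18a1 differed between its probe sets. The second Col4a1 probe set had NZW/LacJ lowest too, at 94.6, with 132 in RIIIS/J against 124 to 128 in the remaining strains. Across all pairs of detected probe sets of one gene, the deviations differed by a median of 0.22 on the log2 scale, and by 1.00 at the 95th percentile.

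**Figure D4:**
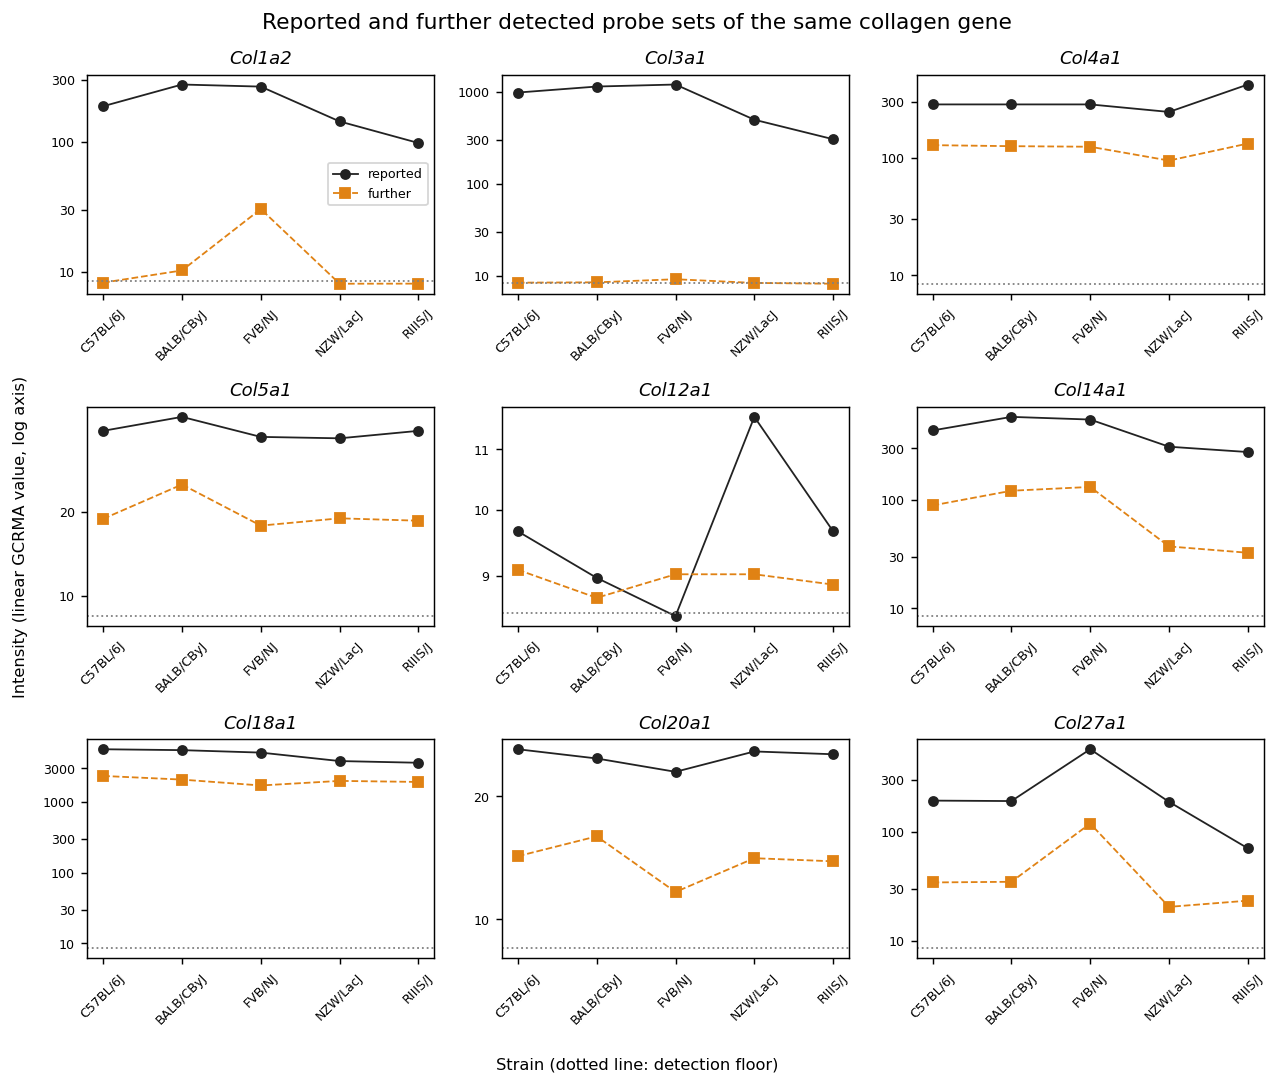
Intensity on a log axis by strain for the 9 collagen genes with more than 1 probe set above the floor, with the reported probe set as circles, the further one as squares and the detection floor dotted. The pairs run alike for Col14a1 and, in FVB/NJ, for Col27a1, while the further Col3a1 probe set stays at the floor, between 8.28 and 9.26.

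Genes that process collagen were counted in the same way. Of all detected genes 12.0% were apart in any strain, so 0 apart among 10 or 11 genes is near the background. Of 18 listed genes for modification and folding of the chains, 11 were detected and 0 were apart, with medians of -0.03 to 0.02 log2 in the 5 strains and 1 gene with RIIIS/J lowest and NZW/LacJ next. Of 16 genes for secretion and fibril assembly 10 were detected and 0 were apart, with a median of -0.20 in NZW/LacJ and 0.03 to 0.05 in the other strains. Here too 1 gene had that order, which 8.69% of all detected genes had. Of 15 laminins and other basement membrane proteins 11 were detected and 0 were apart, with medians of -0.09 to 0.0024. Of 6 crosslinking genes 3 were detected and 1 was apart, in FVB/NJ, where 5.82% of all detected genes were higher. This was Loxl1, a lysyl oxidase family member, at 25.4 in FVB/NJ, against 5.79 to 6.73 in the other strains, which were under the floor, a ratio of at least 2.99. The part of the lymphoid tissue in this FVB/NJ value was not tested.

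The remaining pathway lists held genes apart in FVB/NJ, a call that 5.82% of all detected genes had, while 12.0% were apart in any strain. Of 15 turnover genes 5 were detected, and Timp2, an inhibitor of matrix metalloproteinases, was apart at 337 in FVB/NJ, against 128 to 145 in the other strains (2.33-fold). Of 10 collagen receptor genes 5 were detected, and Ddr1, a receptor tyrosine kinase that binds collagen, was apart at 193 in FVB/NJ, against 41.6 to 54.1 (3.57-fold). Of 15 genes of TGF-beta signalling, the main inducer of collagen genes in fibrosis, 11 were detected and 2 were apart. Tgfb1 measured 181 in FVB/NJ, against 17.7 to 35.5 in the other strains (5.09-fold), and Ccn2, its classical target, 117 against 8.91 to 22.3 (5.23-fold). These genes were apart in the strain whose array carried the lymphoid transcripts, and the part of that tissue was not tested. RIIIS/J had the lowest median of the TGF-beta list, at -0.44, against -0.17 to 0.20 in the other strains. In RIIIS/J 4 of the 11 genes lay above the mean of the other strains, against 43.2% of all detected genes, which is near the background. In FVB/NJ 10 did, against 45.2%. The means for RIIIS/J included the high FVB/NJ values, and this median was not computed without that array. Ccn2 measured 18.5 in RIIIS/J, inside the range of the strains other than FVB/NJ.

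Small leucine-rich proteoglycans bind collagen fibrils and control their growth, and 8 of 10 listed genes were detected. Their median was -0.38 in RIIIS/J, against -0.11 to 0.03 in the other strains. Fmod (fibromodulin) was apart at 103 in FVB/NJ, against 17.6 to 27.5 in the other strains (3.73-fold). Omd (osteomodulin) was apart at 78.1 in NZW/LacJ, against 17.0 to 18.7 (4.18-fold). Of all detected genes 5.82% were apart and higher in FVB/NJ and 0.759% in NZW/LacJ. The part of the lymphoid tissue in the FVB/NJ value of Fmod was not tested.

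**Figure D5:**
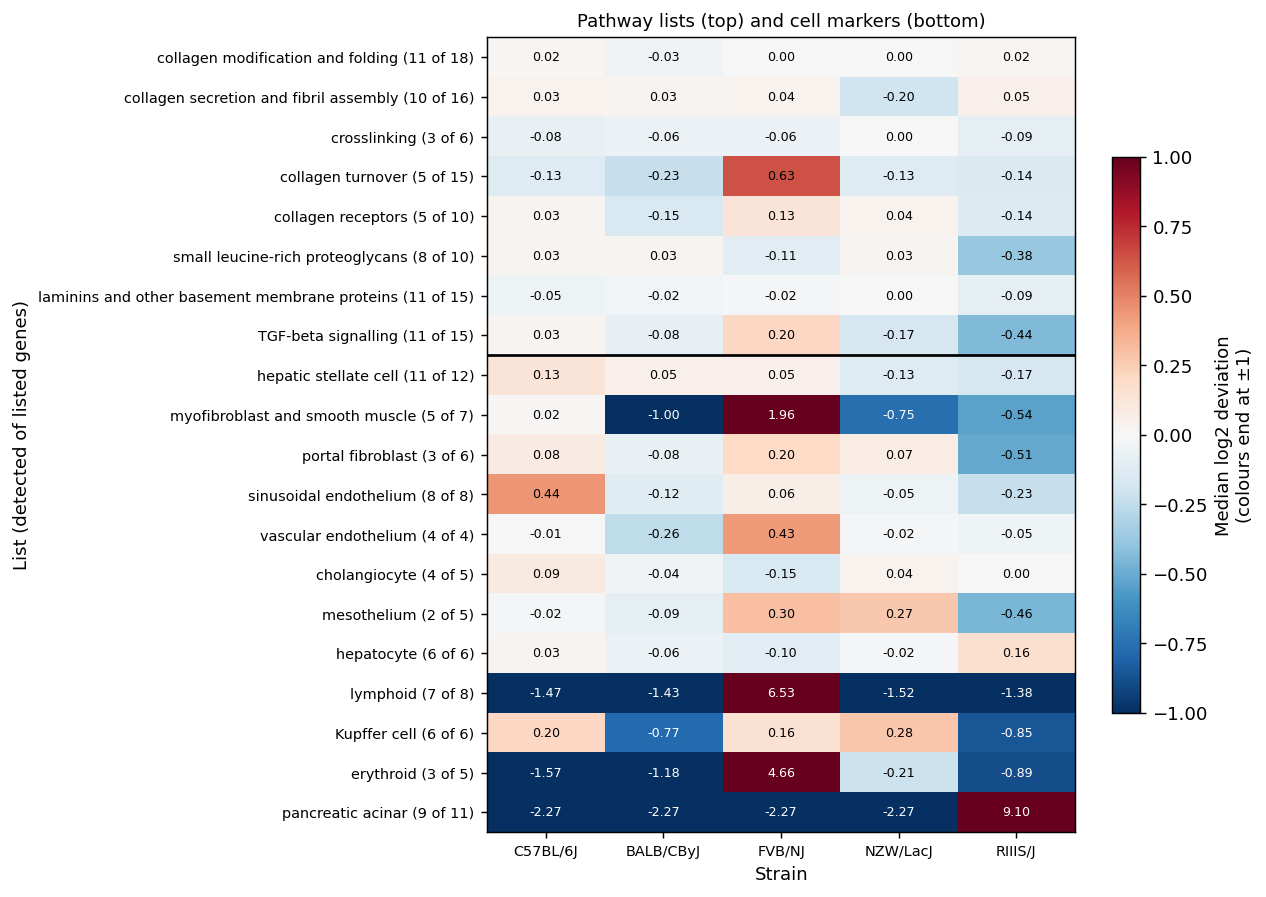
Median log2 deviation of each list in each strain against the mean of the other 4 strains, with pathway lists above the line and cell markers below it, and the number of detected genes of those listed in brackets. The largest medians are those of the lymphoid list in FVB/NJ, at 6.53, and of the pancreatic acinar list in RIIIS/J, at 9.10, while the hepatocyte list lies between -0.10 and 0.16.

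Markers of the cells that make collagen were set beside the collagen values. Of 12 stellate cell markers 11 were detected, while Des (desmin) was under the floor on every array. The detected markers summed to 4750.2 in RIIIS/J and 6063 in NZW/LacJ, against 6054 in C57BL/6J, 6752 in BALB/CByJ and 5619 in FVB/NJ. Their median deviation was -0.17 in RIIIS/J and -0.13 in NZW/LacJ, against 0.05 to 0.13 in the other strains. The stellate markers thus stood lowest in RIIIS/J by both measures, though by median only slightly below NZW/LacJ. By gene, RIIIS/J was lowest for 5 of the 11 detected markers, against 22.7% of all detected genes. It was highest for 2, Ngfr at 78.5 and Hgf at 70.2, against 17.5% of all detected genes, which is near the background. The part of the acinar tissue in these RIIIS/J values was not tested. The part of stellate cell number in the low fibrillar values was not tested. In FVB/NJ, Pdgfrb was apart and higher, at 446 against 184 to 213, and Hgf apart and lower, at 17.6 against 50.7 to 70.2. Of all detected genes 5.82% were apart and higher there and 0.54% apart and lower. The part of the lymphoid tissue in these FVB/NJ values was not tested.

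Of 6 portal fibroblast markers 3 were detected, and these summed to 29.5 in RIIIS/J, against 45.3 to 75.2 in the other strains. The low sum in RIIIS/J came from Entpd2, apart and lower at 13.9 there, against 29.4 to 34.4. Of all detected genes 1.73% were apart and lower in RIIIS/J. Fbln2 was flat, at 10.6 in RIIIS/J, against 9.78 to 10.9 in the other strains. Thy1, also a T cell marker, was above the floor only in FVB/NJ, at 35.4, and raised the sum there. Of 7 myofibroblast and smooth muscle markers 5 were detected, and these summed to 1197 in FVB/NJ, against 166 to 408 in the other strains. Acta2 (smooth muscle actin) was apart at 823 in FVB/NJ, against 58.1 to 77.9, and Tagln and Myl9 were apart there too. Of all detected genes 5.82% were apart and higher in FVB/NJ. Its array carried the lymphoid transcripts, and the part of that tissue in these markers was not tested. Tpm2 was apart at 230 in C57BL/6J, with 45.8 to 91.2 elsewhere, a call that 0.489% of all detected genes had. It was the only marker of this list apart in C57BL/6J. Of the fibrillar collagen genes, Col27a1 was apart and higher in FVB/NJ, while Col1a1, Col1a2 and Col3a1 were not apart there by their reported probe sets. The second Col1a2 probe set was highest in FVB/NJ, at 30.3, against 10.2 in BALB/CByJ. How these markers relate to the collagen values was not tested.

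The markers of other liver cells were read in the same way, beside the 12.0% of all detected genes that were apart in any strain. In lists this short, 0 genes apart is near that share. All 8 sinusoidal endothelial markers were detected with 0 apart, and their sum was 2703 in RIIIS/J, against 2927 to 3479 in the other strains. The 4 vascular endothelial markers summed to 199 in FVB/NJ, against 96.5 to 120 in the other strains, with 0 apart. Of 5 cholangiocyte markers 4 were detected and of 5 mesothelial markers 2, with 0 apart in either list. The 6 Kupffer cell markers summed to 3115 in NZW/LacJ, against 1299 to 2139 in the other strains. Marco and Timd4 were apart and higher in FVB/NJ, a call that 5.82% of all detected genes had. The remaining markers Clec4f, Cd163, Adgre1 and Cd5l were highest in C57BL/6J or NZW/LacJ and apart in no strain. The FVB/NJ array carried the lymphoid transcripts, and the part of that tissue in Marco and Timd4 was not tested.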

How the data were processed

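Liver RNA of 5 mouse strains was measured on Affymetrix Mouse430_2 arrays, 1 per strain, and the values deposited by the authors are linear intensities. The submitters' processing notes name GCOS and GCRMA. Their versions, settings and array batches are not given in the sources used here. GCRMA adjusts probes for their base composition. Equal values on at least 2 arrays occurred in 29.1% of 45101 probe sets, and so did 11 of the 24 detected collagen genes, against 32.9% of all detected genes. Equal values set a difference to 0 and are no measure of precision.

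The platform annotation gave 34970 probe sets 1 gene, 920 several and 9211 none, and the last 2 kinds were left out. It can be old, and all 42 collagen symbols were found in the RefSeq gene table. Col6a6 and Col28a1 had no probe set with a single gene. Values were converted to log2, values under the floor of 3.09 log2 were raised to it, and a ratio against such a value is written as at least. No p-value was computed. The apart call was tested on simulated data. Collagen genes were named with all 5 values if apart or with a span of at least 2-fold, and otherwise mostly with their range. Genes of the lists were named if apart, up to 6 per list, apart from those that check a cell type, and listed acinar, lymphoid and erythroid genes are given as sums. The members and lists were chosen with earlier results of these data known. The alternatives changed the floor, the probe set rule, the normalization, the threshold, the comparator and the arrays used. Python 3.11.15, numpy 2.4.6, pandas 2.3.3 and matplotlib 3.10.9 were used.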

Additional observations from a re-analysis of the deposited data

How the results depend on the processing

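No paired analysis was possible because no strain had more than a single array. Of the counts and medians recomputed under each alternative, 278 stayed within 1.5 times the reported count or within 0.22 of the reported log2 median, and 33 moved further. No median beyond 0.22 from 0 changed sign, and some medians nearer to 0 did. The number of detected collagen genes was 24, and 15 under the 99th percentile floor of 28.2. The 7 genes with a span of at least 2-fold became 3 at a 4-fold threshold and 4 without RIIIS/J. Genes apart and higher in C57BL/6J numbered 1, and 0 among genes detected on all 5 arrays, a choice made after seeing the data, since Col5a3 was under the floor in RIIIS/J. Genes higher in FVB/NJ numbered 1, 2 without the _s_at, _x_at and _a_at probe sets, when Col1a2 took its second probe set, and 0 at 4-fold. Genes lower in RIIIS/J numbered 1, 0 with the mean of all probe sets, 3 at 1.5-fold, 0 at 4-fold, and 2 without FVB/NJ or without NZW/LacJ. Genes higher in RIIIS/J numbered 0, and 1 at 1.5-fold or without BALB/CByJ. Genes lower in NZW/LacJ numbered 0, and 1 at 1.5-fold. Without RIIIS/J 1 gene was higher in BALB/CByJ and 1 lower in FVB/NJ.

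The fibrillar medians moved most. In RIIIS/J all were below 0, between -0.88 and -0.20. Under the 99th percentile floor they were -0.88 in RIIIS/J, -0.42 in NZW/LacJ and 0.30 in FVB/NJ. Over genes detected on all arrays they were -0.75 in RIIIS/J, 0.30 in FVB/NJ and 0.57 in BALB/CByJ. With arrays left out in turn, the median in RIIIS/J was -0.70 without C57BL/6J and -0.87 without NZW/LacJ, that in NZW/LacJ was -0.45 without RIIIS/J, that in BALB/CByJ was 0.52 without C57BL/6J, and that in C57BL/6J was 0.23 without FVB/NJ. The basement membrane medians became 0.26 in C57BL/6J, 0.22 in BALB/CByJ and 0.22 in RIIIS/J under the 99th percentile floor, and -0.14 in FVB/NJ with quantile normalization. In NZW/LacJ the basement membrane median was -0.0042 with no floor and -0.021 without the _s_at, _x_at and _a_at probe sets. The cause of these shifts was not tested. The pool of animals, the single array per strain and the low signal of Col1a1, Col2a1, Col9a3, Col12a1, Col24a1 and Col26a1 limit what can be seen.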

Other observations

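Low values followed one order of the arrays. The order C57BL/6J, NZW/LacJ, RIIIS/J, BALB/CByJ, FVB/NJ, highest first with ties allowed, held for 8 of the 18 collagen genes under the floor on every array and for 56.2% of all such genes. It also held for 4 of the 12 detected collagen genes that spanned less than 1.5-fold, and for 0 of the 12 with a wider span. Among all detected genes 6.42% had this order, and among those with a span of at least 1.5-fold 1.16% had it. Small differences between strains in dim collagen genes, such as the values of C57BL/6J above the mean of the other strains, stand beside this order, and its part in them was not tested.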
